A study of Mus musculus with 4 samples.

Results

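Transcripts of the Janus kinases (JAKs) and of the signal transducers and activators of transcription (STATs) were followed in a mouse cell line that can grow on a cytokine or on the leukaemia kinase BCR-ABL. The members were chosen by gene symbol: Jak1, Jak2, Jak3, Stat2, Stat3, Stat4, Stat5a, Stat5b and Stat6, each measured by the probe sets (groups of probes read as 1 value) that the platform annotation assigns to exactly 1 gene. Of these 9 genes, 8 had such a probe set, 1 each, among 19935 genes compared. Jak3 had none, because its probe set is also annotated to Insl3, and it therefore enters no comparison. The array annotation and RefSeq gave the same symbol for each of the 8.

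The cells were Baf3 (Ba/F3), pro-B cells of the mouse that die without the growth factor interleukin-3 (IL-3). The submitters' stated purpose was to find genes driven by BCR-ABL and by the growth factor that bear on resistance to imatinib. RNA from 4 samples was labelled with biotin as sense-strand cDNA and hybridised to Affymetrix Gene 1.0 ST arrays. Baf3 cells carrying a DOX inducible BCR-ABL were grown with 500 ng/ml DOX (doxycycline) either without IL-3 (n = 2 arrays, called A and B) or with IL-3 (n = 1), and the parental line was grown with IL-3 and served as the comparison (n = 1). The labels mention no DOX for the parental cells, no inducible cells without DOX, no number of clones for the inducible line, and no separate cultures for A and B. The p-values below therefore measure only the spread between A and B, which may be technical.

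JAKs are tyrosine kinases bound to the inner part of cytokine receptors. When a cytokine draws receptor chains together, the JAKs phosphorylate the receptor and then the STATs, which pair up, enter the nucleus and bind DNA. The IL-3 receptor signals mainly through JAK2 and the closely related pair STAT5A and STAT5B, and BCR-ABL is known to activate STAT5 as well. STAT3 serves the IL-6 family, STAT4 serves IL-12, STAT6 serves IL-4 and IL-13, and STAT2 joins IRF9 in the response to type I interferon. JAK and STAT activity is set by phosphorylation, which an array of transcripts does not measure.

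The deposited values give, on a scale read as log2, how far each array lies from the parental one. The parental value is therefore 0 for each gene and the level of one gene cannot be set against that of another. Over all genes the median was 0.0044 on A, -0.077 on B and 0.0085 in BCR-ABL cells given IL-3. The typical gap between A and B, as the median of its size over all genes, was 0.13. The presence of lineage markers could be read only coarsely, since the spacing of the values shows that some genes had a stored log2 signal below 8 on at least 1 array, and leaves the others unsettled. Such genes were 36.7% of all genes, 4 of 9 B lineage markers (Blnk, Cd22, Ebf1 and Ms4a1), 7 of 9 neutrophil and monocyte markers, and 0 of the 8 members. In RNA of whole cultures, fewer cells with a transcript and less transcript per cell cannot be told apart.

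The start regions of the genes that the results below turn on are shown first. Promoter windows of RefSeq (build GRCm38.p6), 250 bases before to 50 bases after an annotated start, were found for all 8 members, in 11 windows. Stat5b, Stat5a and Stat3 lie next to each other on chromosome 11 in that order, and Stat6 and Stat2 both lie on chromosome 10. The windows at chr11:100822521-100822820 (Stat5b, minus strand) and chr11:100860234-100860533 (Stat5a, plus strand) are printed because Stat5b passed the test below and its paralog Stat5a did not. Each is the downstream window of its gene, and this pair was taken because it holds the longest shared run. Capitals mark the longest run of bases that any Stat5b window shares with any Stat5a window, over 4 pairs of windows.

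Stat5b: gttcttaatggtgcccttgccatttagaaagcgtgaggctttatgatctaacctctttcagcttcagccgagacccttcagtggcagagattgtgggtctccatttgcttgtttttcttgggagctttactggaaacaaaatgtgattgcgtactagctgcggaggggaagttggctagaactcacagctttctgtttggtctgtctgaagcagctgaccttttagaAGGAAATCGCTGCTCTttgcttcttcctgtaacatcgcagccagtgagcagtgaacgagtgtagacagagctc

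Stat5a: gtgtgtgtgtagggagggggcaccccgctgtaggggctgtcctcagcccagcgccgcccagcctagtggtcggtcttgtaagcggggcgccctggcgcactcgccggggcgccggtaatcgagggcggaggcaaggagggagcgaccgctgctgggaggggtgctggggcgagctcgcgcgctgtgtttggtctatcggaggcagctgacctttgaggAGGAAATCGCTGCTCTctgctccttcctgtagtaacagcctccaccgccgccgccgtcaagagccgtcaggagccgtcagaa

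The shared run has 16 bases and starts 23 bases before the annotated start in Stat5b and 32 bases before it in Stat5a. With 25 further bases on each side, 51 of 66 bases were identical (77.3%), a count that includes the 16 bases chosen for being identical. The other annotated start of Stat5b lies upstream of the one above, in the window chr11:100850532-100850831 on the minus strand. In this window 82.7% of bases are C or G, against a median of 52.7% over all promoter windows. It is shown for contrast with the Stat5b window above, in which 47.3% of bases are C or G. Capitals are not used because no searched motif was found in the GC-rich window.

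Stat5b, GC-rich start: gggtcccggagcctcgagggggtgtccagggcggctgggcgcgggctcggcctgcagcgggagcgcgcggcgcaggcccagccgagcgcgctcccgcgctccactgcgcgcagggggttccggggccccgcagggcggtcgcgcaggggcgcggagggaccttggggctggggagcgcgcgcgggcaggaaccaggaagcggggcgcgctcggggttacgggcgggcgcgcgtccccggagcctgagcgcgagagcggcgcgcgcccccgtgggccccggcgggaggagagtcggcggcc

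All windows were searched on both strands for 3 motifs. GAS, the general STAT motif, was TTC and GAA with 3 free bases between them. The wider form that STAT6 binds had 4 free bases in the same place. The interferon-stimulated response element (ISRE) was GAAA followed, after 2 free bases, by GAAA. GAS was in 0 of the 11 member windows and in 8.3% of all 32851 promoter windows. The wider form was in 1 member window and in 6.95% of all windows, and the ISRE form in 2 member windows and in 3.44% of all windows. The matching windows are those of Stat2 (chr10:128270248-128270547, plus strand) and of the downstream of the 2 annotated starts of Stat4 (chr1:52007990-52008289, plus strand), printed with the matches in capitals.

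Stat2: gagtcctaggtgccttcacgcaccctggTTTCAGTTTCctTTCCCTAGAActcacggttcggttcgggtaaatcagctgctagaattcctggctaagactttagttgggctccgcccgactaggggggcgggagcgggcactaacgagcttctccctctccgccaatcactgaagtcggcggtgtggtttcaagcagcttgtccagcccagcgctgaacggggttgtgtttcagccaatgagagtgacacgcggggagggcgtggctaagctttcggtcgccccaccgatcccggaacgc

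Stat4: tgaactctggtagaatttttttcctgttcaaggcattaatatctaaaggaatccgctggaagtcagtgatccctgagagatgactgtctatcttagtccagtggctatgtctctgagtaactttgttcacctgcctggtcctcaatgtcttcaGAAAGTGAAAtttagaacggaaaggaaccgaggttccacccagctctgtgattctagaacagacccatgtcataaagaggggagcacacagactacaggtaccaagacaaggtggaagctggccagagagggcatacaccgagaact

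In Stat2 the reverse strand of the ISRE form starts 222 bases before the annotated start and the wider STAT form starts 210 bases before it, and they do not overlap. In Stat4 the ISRE form starts 97 bases before the annotated start. Such a match is a run of letters and does not show binding, and a window without one says nothing about binding elsewhere.

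BCR-ABL cells without IL-3 (A and B) were first compared with parental cells with IL-3. Beside the kinase and IL-3, these groups differ in the inducible line and, by the labels, in DOX. The effects of these differences cannot be told apart. A gene was called where limma's adjusted p over all genes was under 0.05. Of the 8 members 1 was called, where 8.06% of all genes were. Stat5b, which encodes 1 of the 2 STAT5 proteins, fell, while Jak1, Jak2, Stat2, Stat3, Stat4, Stat5a and Stat6 did not pass. BCR-ABL cells with IL-3 were then compared with those without it, a test of what IL-3 adds while the kinase is on. There 0 members passed, where 0.00502% of all genes did.

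**Figure D1:**
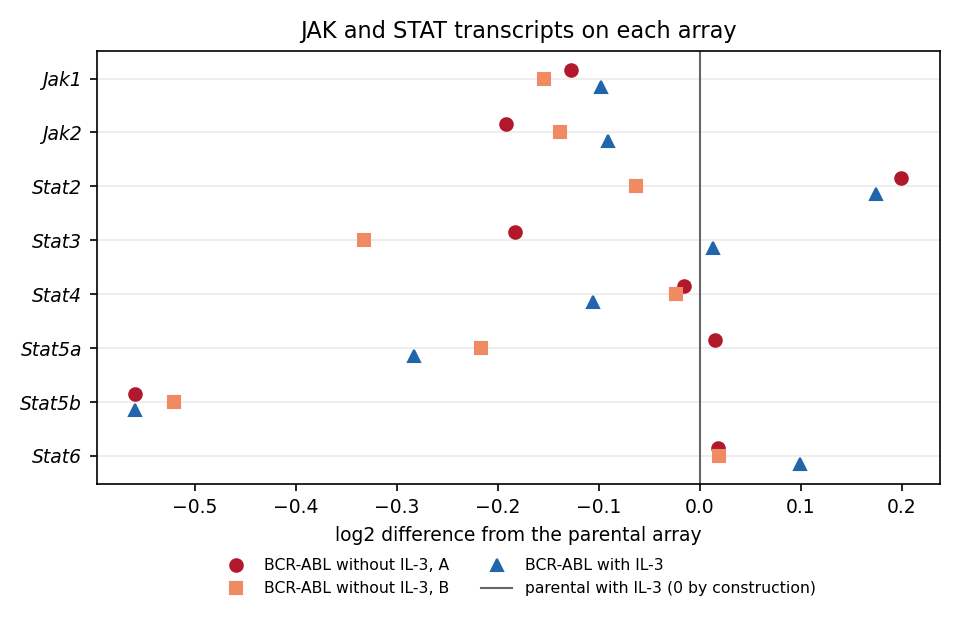
Log2 difference from the parental array (horizontal axis) for each of the 8 genes (rows) in BCR-ABL cells without IL-3 (arrays A and B) and in BCR-ABL cells with IL-3, with the parental array as the line at 0. Stat5b lies between -0.56 and -0.52 on all 3 arrays, and every other value lies between -0.33 and 0.20.

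Among the kinases, Jak1 partners many receptor families, including the gamma-chain and interferon receptors. Its log2 difference was -0.13 on A and -0.15 on B without IL-3 and -0.10 with IL-3, against 0 in parental cells. Jak2, the kinase of the IL-3 receptor, stood at -0.19 on A, -0.14 on B and -0.09 with IL-3, against 0 in parental cells. Both kinases were thus lower than parental on all 3 BCR-ABL arrays, by small amounts. In the first comparison the difference was -0.14 for Jak1 (SE 0.15, adjusted p = 0.886 by limma) and -0.17 for Jak2 (SE 0.15, adjusted p = 0.821), and neither passed. The 95% interval reached from -0.46 to 0.18 for Jak1 and from -0.49 to 0.16 for Jak2, so falls up to these sizes lie within the error of these arrays. Tyk2, the kinase of the interferon and IL-12 receptors, is not among the 9 members and was picked once its values were known. It stood at -0.36 on A, -0.50 on B and -0.28 with IL-3, and its difference of -0.43 in the first comparison did not pass (SE 0.16, adjusted p = 0.116).

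Stat5b stood at -0.56 on A, -0.52 on B and -0.56 with IL-3, against 0 in parental cells. A and B differed by 0.04 on this scale, and all 3 BCR-ABL arrays lay below the parental array by a similar amount. In the first comparison it was 1.45-fold lower (log2 -0.54, SE 0.15, 95% interval -0.86 to -0.22, adjusted p = 0.0353 by limma), and lower on both A and B. Of all genes 2.87% were called lower in this comparison, and 2.73% of all genes had a lower difference than Stat5b. With every array set to a median of 0 over all genes, the difference was -0.50 and the call was lost (adjusted p = 0.0928). The range of the adjusted p over the alternatives that give one was 0.0348 to 0.0928. On simulated data false calls exceeded the share that the threshold allows in 17 of 20 draws (median 12.4% of calls). Fewer genes were changed there than were called here, each by more than Stat5b, so that share need not hold for this call. A call this close to the threshold may still be less certain than its adjusted p says.

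Stat5a, the paralog of Stat5b, stood at 0.02 on A, -0.22 on B and -0.28 with IL-3, against 0 in parental cells. A and B differed here by 0.23, more than for any other member except Stat2 at 0.26. In the first comparison the difference was -0.10 (SE 0.16, 95% interval -0.44 to 0.24, adjusted p = 0.969). Stat5b was lower than Stat5a on each BCR-ABL array relative to parental, by 0.57 on A, 0.30 on B and 0.28 with IL-3. That gap between the paralogs was not tested. Where the probes of these similar genes lie was not analysed here, so signal shared between them cannot be told apart from their own.

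Stat3 and Stat2 varied between the BCR-ABL arrays. Stat3, the STAT of the IL-6 family, stood at -0.18 on A and -0.33 on B without IL-3 and at 0.01 with IL-3, against 0 in parental cells. It was below parental on both arrays without IL-3, and the array with IL-3 was at the parental value. In the first comparison its difference was -0.26 (SE 0.16, adjusted p = 0.510). Stat2, the STAT of the type I interferon response, stood at 0.20 on A, -0.06 on B and 0.17 with IL-3, against 0 in parental cells. A and B lay on opposite sides of the parental array, and the difference was 0.07 (SE 0.16, adjusted p = 0.997).

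Stat4 and Stat6, which serve IL-12 and IL-4 signals mainly in lymphocytes, had values close to parental in BCR-ABL cells without IL-3. Stat4 stood at -0.02 on A, -0.02 on B and -0.11 with IL-3, against 0 in parental cells. Stat6 stood at 0.02 on A, 0.02 on B and 0.10 with IL-3, against 0 in parental cells. For these the A to B gaps, 0.0076 and 0.00098, were the smallest of the 8. Their differences in the first comparison were -0.02 and 0.02 (SE 0.15 each, adjusted p = 1.0 each), and the sign of Stat4 turned to 0.02 after centring.

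**Figure D2:**
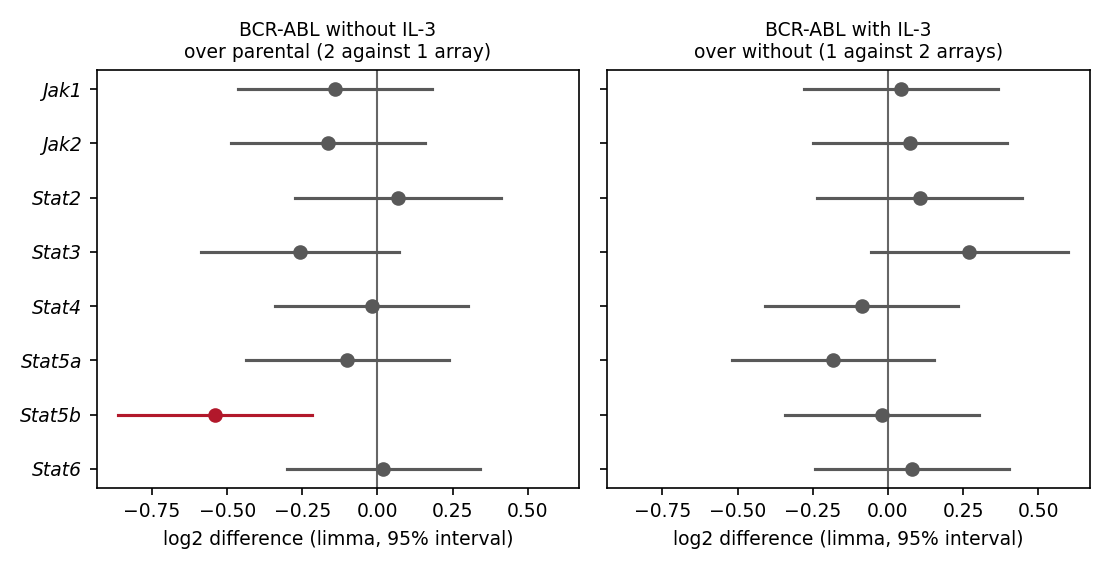
Log2 difference (horizontal axis) with its 95% limma interval for each member (rows), in BCR-ABL cells without IL-3 over parental cells (left) and in BCR-ABL cells with IL-3 over those without it (right). Stat5b on the left, in red, is the 1 member past an adjusted p of 0.05, and its interval runs from -0.86 to -0.22.

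Over the 8 members the median difference in the first comparison was -0.12, beside -0.038 over all genes. Below 0 lay 6 of the 8 values, and most of all genes lay below 0 too, as their median shows. In order from lowest to highest the members ran Stat5b, Stat3, Jak2, Jak1, Stat5a, Stat4, Stat6 and Stat2. Apart from Stat5b, the gaps between neighbours in this order were smaller than the SE of a single difference. At 1.5-fold on both A and B 0 members passed, where 4.91% of all genes did. At an unadjusted p under 0.05 the count was 1 of 8 members, beside 16.6% of all genes.

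**Figure D3:**
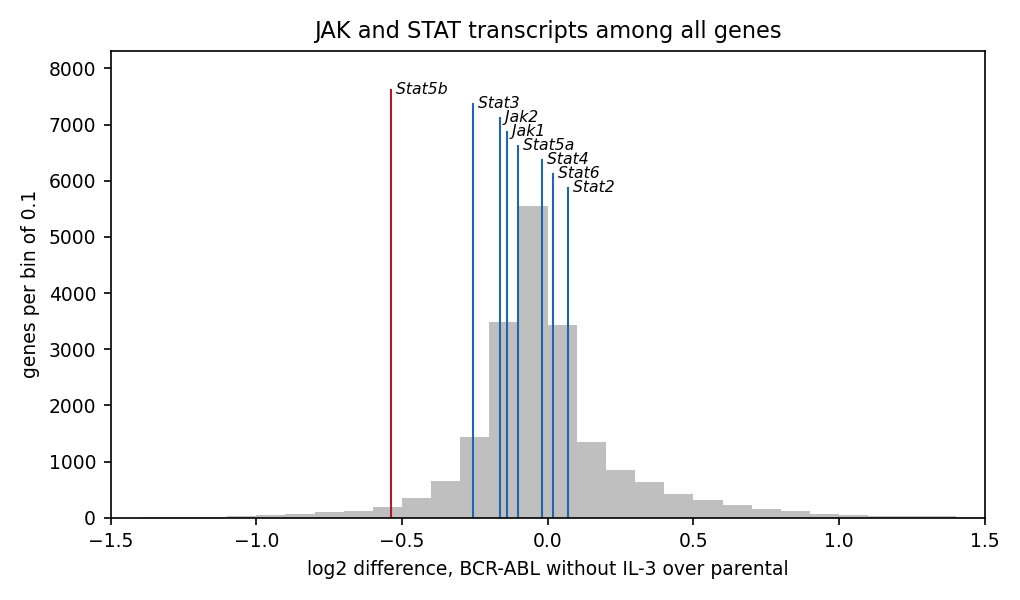
Number of genes in bins of 0.1 (vertical axis) by log2 difference in BCR-ABL cells without IL-3 over parental cells (horizontal axis, shown from -1.5 to 1.5), with a line for each of the 8 members. Stat5b, in red, lies at -0.54 in the lower tail, and the others, in blue, lie between -0.26 and 0.07.

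In the second comparison the members lay between -0.18 and 0.27 relative to BCR-ABL cells without IL-3. Stat3 was the highest, with 0.01 in the IL-3 sample against -0.18 on A and -0.33 on B (log2 difference 0.27, SE 0.16, 95% interval -0.06 to 0.60, adjusted p = 1.0 by limma). Of all genes 96.6% had a lower difference. Stat5a was the lowest at -0.18 (SE 0.16, 95% interval -0.52 to 0.15, adjusted p = 1.0), with -0.28 in the IL-3 sample against 0.02 on A and -0.22 on B. Stat5b had -0.56 in the IL-3 sample, against -0.56 on A and -0.52 on B, a difference of -0.02 (95% interval -0.34 to 0.30). Of the members 0 of 8 were called, and 0 had an unadjusted p under 0.05, while 0.00502% of all genes were called, which is 1 gene, and 901 had an unadjusted p under 0.05. The members' median was 0.06, beside 0.03 over all genes.

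BCR-ABL cells with IL-3 and parental cells with IL-3, both given the growth factor, had 1 array each, so their comparison has values and no test. Stat5b was the lowest member, at -0.56 (1.47-fold lower), and Stat5a followed at -0.28. Stat2 was the highest at 0.17, and the median over members was -0.09, beside 0.0085 over all genes. At 1.5-fold 0 of 8 members passed, where 5.83% of all genes did. The parental array also enters the comparison with BCR-ABL cells without IL-3, so the values of these comparisons are not independent.

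The genes nearest to Stat5b over the 3 BCR-ABL arrays, by Euclidean distance of their log2 differences from parental, were Mterf2 (0.0293), Cit (0.0412) and Paip2 (0.0419). Mterf2 stood at -0.58 on A, -0.53 on B and -0.58 with IL-3. Cit stood at -0.57 on A, -0.53 on B and -0.52 with IL-3, and Paip2 at -0.58, -0.48 and -0.56.

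Other genes of JAK-STAT signalling were read from lists. Of 26 measured chains of receptors that signal through JAKs, 4 were called higher and 2 lower in the first comparison. Not every listed chain binds a JAK itself, Il2ra among them. Of all genes 5.19% were called higher and 2.87% lower. The list's median was -0.03, beside -0.038 over all genes, and 0.0026 after centring. Ifngr1, the ligand-binding chain of the interferon-gamma receptor and a partner of JAK1, stood at -1.18 on A, -1.03 on B and -1.07 with IL-3, and was 2.15-fold lower (adjusted p = 0.000139). Il12rb2, the signalling chain of the IL-12 receptor that recruits STAT4, stood at 0.65 on A, 0.65 on B and 0.82 with IL-3 (adjusted p = 0.0111). Il2ra, Il2rb and Il4ra were the other chains called higher, at log2 differences of 4.11, 1.11 and 0.78. Il2ra had the largest difference of the list. Epor was the other chain called lower, at -0.70. The IL-3 receptor chains did not pass, with Il3ra at -0.51 (adjusted p = 0.054) and Csf2rb at -0.01.

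Of 17 negative regulators 3 were called higher and 1 lower in the first comparison, with a median of 0.10. Over all genes 5.19% were called higher and 2.87% lower, with a median of -0.038. The feedback inhibitors Cish and Socs1, which block STAT5 docking and JAK activity, were the highest, at log2 differences of 2.06 and 1.79. The phosphatase Ptpn2, which removes phosphate from JAK1, JAK3 and STATs, stood at 0.50 on A and 1.11 on B without IL-3 and at 0.55 with IL-3 (difference 0.80, adjusted p = 0.0152). Pias3, an inhibitor of STAT3, stood at -0.46 on A, -0.66 on B and -0.48 with IL-3 (difference -0.56, adjusted p = 0.0336). Ptpn2 and Pias3 lost their calls after centring (adjusted p = 0.179 and 0.0803). Ptpn6, Sh2b3 and the other Socs and Pias genes did not pass.

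**Figure D4:**
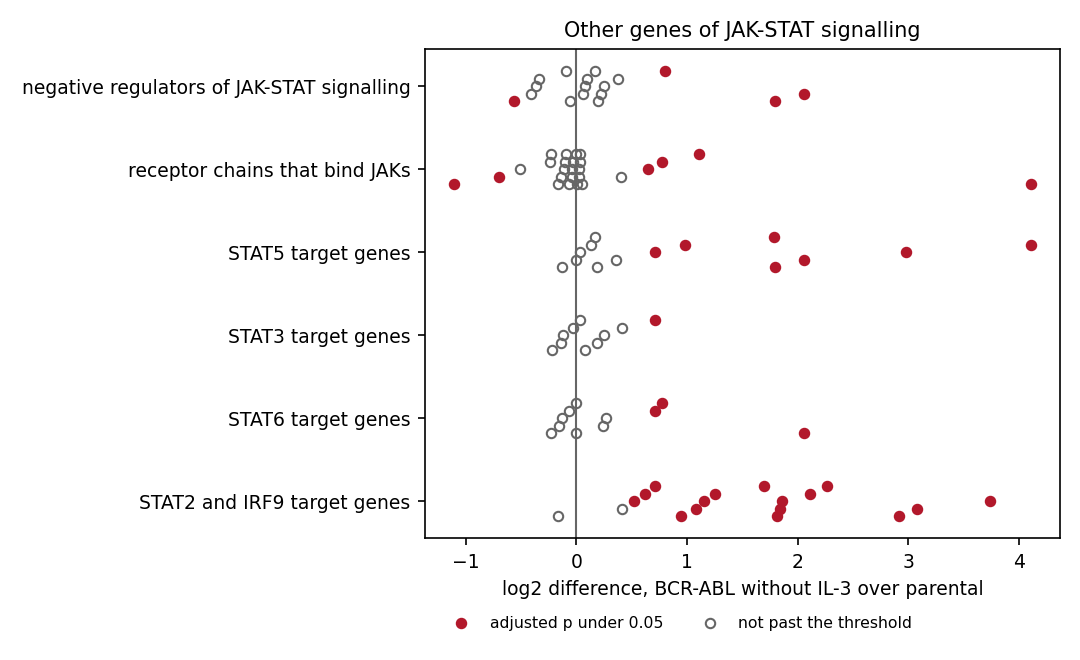
Log2 difference in BCR-ABL cells without IL-3 over parental cells (horizontal axis) for each measured gene of 6 lists (rows), with filled red points for an adjusted p under 0.05 and open points otherwise. STAT2 and IRF9 targets (16 of 18) and STAT5 targets (7 of 14) hold the most red points, all of them above 0. The row of receptor chains holds chains of receptors that signal through JAKs, whether or not the chain itself binds a JAK.

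Target genes of the STATs were read beside the STAT transcripts, from lists chosen with earlier results of these data known. The lists overlap, and Cish belongs to those of negative regulators, STAT5 targets and STAT6 targets. In the first comparison 5.19% of all genes were called higher and 2.87% lower (median -0.038). Of 14 STAT5 targets 7 were called higher and 0 lower (median 0.54), while Stat5b fell and Stat5a did not pass. Pim2, a survival kinase, stood at 3.01 on A, 2.95 on B and 3.13 with IL-3. Of 18 STAT2 and IRF9 targets 16 were called higher and 0 lower (median 1.48), and 15 after centring, without Eif2ak2 (adjusted p = 0.0457 before and 0.0589 after centring), while Stat2 did not pass. Irf9, the partner of STAT2, is counted among the 16 called higher, with 0.87 on A, 0.55 on B and 0.92 with IL-3 (difference 0.71, adjusted p = 0.0105 by limma). Of 11 STAT6 targets 3 were called higher and 0 lower (median 0.00038), and 6 had a stored log2 signal below 8 on at least 1 array. Among those called was Batf, a transcription factor of activated lymphocytes, at 0.66 on A, 0.76 on B and 0.52 with IL-3. Of 10 STAT3 targets Junb alone was called, at a difference of 0.71, and the median was 0.05. In the second comparison 0 genes of these 6 lists were called, where 0.00502% of all genes were.

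Markers of other cell types were read beside these results, in the first comparison. There 5.19% of all genes were called higher and 2.87% lower (median -0.038). Of 11 T and NK cell markers 0 were called and 11 were below 0, with a median of -0.12. In the second comparison all 11 were above 0, where the median over all genes was 0.034. Both comparisons use A and B, with opposite sign, and B had a median of -0.077 over all genes. The signs in these comparisons are therefore not independent. Of 8 non-haematopoietic markers 0 were called, with a median of -0.03. A stored log2 signal below 8 on at least 1 array was found for 6 of the 11 and 4 of the 8. Of 9 B lineage markers 0 were called (median -0.06). Among 9 neutrophil and monocyte markers Cebpe was called lower at -0.76 (list median -0.0080). Of 8 listed erythroid markers 5 were measured, and Klf1 and Epor were called lower at -0.92 and -0.70 (list median -0.46). Epor is also among the receptor chains above. Gata1 (-0.46) did not pass, nor did Alas2 (0.08) and Tfrc (0.12), which lay above 0. The part of all these markers in the result for Stat5b was not tested.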

How the data were processed

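RNA of 4 samples was measured on Affymetrix Gene 1.0 ST arrays. The deposited table holds 28815 probe sets. The deposited values are taken as log2 differences relative to parental cells, since the parental column is 0 throughout. Base 2 was inferred: 99.8% of nonzero values are whole multiples of the step at which single-precision log2 signals are stored. Background correction, normalization and probe summary are not given in the sources used here.

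Probe sets with exactly 1 annotated symbol (21780) were kept and averaged by gene. Limma 3.58.1 in R 4.3.3 fitted group means for the 3 groups over all 4 arrays. A against B is the 1 residual degree of freedom, so each lone array is taken to have their spread. The prior had 16.4 degrees of freedom (SD 0.128). Two-sided p-values were adjusted over 19935 genes (Benjamini-Hochberg), with a threshold of 0.05. The number of arrays limits the precision. On simulated data with known changes the fit found most changed genes, but each was changed by more than any member differed here. How often it finds smaller changes was not tested. In most draws false calls exceeded the share the threshold allows, and the estimated prior degrees of freedom varied widely. No mean-variance trend was used, since levels were not analysed.

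The members and gene lists were chosen with earlier results of these data known. All members are named, with some called genes of the lists, which are not always those with the largest difference. For a called member the 3 nearest named genes are given, leaving out predicted genes, clone names, olfactory receptors and small RNAs. List genes given for not passing were picked with values known. The alternatives tried were centring, robust empirical Bayes, leaving out dim probe sets (stored log2 signal below 8 on some array), single probe sets, a threshold of 0.1, a fit of the 2 groups compared, 2-fold in place of 1.5-fold, and leaving out A or B.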

Additional observations from a re-analysis of the deposited data

How the results depend on the processing

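Centring each array on its median over all genes changed the calls. With it 0 members were called in BCR-ABL cells without IL-3 over parental cells, against 1 without it, since Stat5b (log2 -0.50, adjusted p = 0.0928) no longer passed. The centring shifted that comparison by 0.036 for all genes, and the prior then had 5.02 degrees of freedom. Over all genes 936 were called with centring, against 1607 without it. Stat4 in that comparison turned to 0.017, and Jak1 in BCR-ABL cells with IL-3 over those without turned to -0.0012. Under the other alternatives for these comparisons, robust empirical Bayes, no dim probe sets, single probe sets, a threshold of 0.1 and a fit of the 2 groups compared, the count of members called was as before. Of 96 tested alternatives for single members, 93 kept the direction and the side of the threshold. The other 3 are the centred values of Stat5b, Stat4 and Jak1 above. Apart from centring, these settings leave each member's log2 difference unchanged, so its direction could not turn under them. The count of 93 is therefore no measure of robustness. With A or B left out no degree of freedom is left, so these 32 are values with no test, and 3 of them changed sign. Stat2 over parental was -0.063 without A, against 0.068 with both, and Stat5a was 0.016 without B, against -0.100 with both. With IL-3 over without, Stat2 was -0.025 without B, against 0.11 with both. Stat5b over parental was -0.52 without A and -0.56 without B, and 0 members passed 1.5-fold. The pair A and B is 1 group, so no blocked fit was made. No array of the parental cells or of the BCR-ABL cells with IL-3 could be left out, and their own spread was not measured.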

Other observations

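The probe set that lists both Jak3 and Insl3 stood at -0.42 on A, -0.51 on B and -0.32 in BCR-ABL cells given IL-3, relative to 0 in parental cells. These values cannot be assigned to either gene.

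The genes on both sides of Stat5b, Stat5a and Stat3 on chromosome 11 were read as well, chosen by position after the values of Stat5b were seen. Next to Stat5b, Ghdc stood at 0.10 on A, 0.20 on B and 0.14 with IL-3, and Hcrt and Kcnh4 had differences of -0.06 and -0.17 in BCR-ABL cells without IL-3 over parental cells. Next to Stat3, Cavin1 stood at -0.15 on A, -0.17 on B and -0.13 with IL-3, and Atp6v0a1 and Naglu had differences of 0.15 and 0.02. None of these 6 genes was called by limma in that comparison (lowest adjusted p = 0.826).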
